A study of Mus musculus and Miniopterus natalensis with 16 samples.

Results

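The forelimb (FL) and hindlimb (HL) autopods of the Natal long-fingered bat, Miniopterus natalensis, were compared at Carollia stage 17 (CS17) on 8 of the 16 arrays of the series. These were the 4 CS17 FL arrays and the 4 CS17 HL arrays, paired by biological repeat, because the FL and HL of a repeat came from the same embryo. The other 8 arrays held the FL and HL of 4 younger embryos at CS16. All embryos came from wild-caught females and carried no treatment or genetic change, so the limb and the stage were what distinguished the groups. Each array held the pooled left and right autopods of 1 embryo, labelled with Cy3, against a pool of E13.5 mouse FL autopods from 24 embryos, labelled with Cy5. Both were hybridised to mouse Operon OpArray version 4.0 oligonucleotide slides, so bat RNA was read by probes designed on mouse sequence. Dyes were not swapped, and the mouse pool, amplified anew for each repeat, cancels in the difference between FL and HL of an embryo.

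The autopod is the hand or foot plate, in which digits condense as cartilage and the tissue between them either regresses or stays as webbing. In most mammals this interdigital tissue is removed by cell death. In bats the webbing of the forelimb persists and becomes the wing membrane, and the digits of the forelimb elongate, while the hindlimb forms short, separate digits. Meis genes, which encode homeodomain proteins that partner Hox and Pbx proteins, are known from chick and mouse as markers and regulators of the proximal limb. The 5′ genes of the HoxD cluster act in the patterning and growth of the forearm and digits.

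The deposited values were log ratios of each array feature. Of 37440 features, 13988 (37.4%) had values, all of them on all 16 arrays. Features with identical values on every array were counted once, which left 12656 for testing. The features carry numbers and no gene names. Names were given through the study's list of its top probes, which gives 35 probes with a mean fold between limbs at CS16, between limbs at CS17, and between the CS17 bat FL and the mouse FL. A probe was assigned where exactly 1 feature lay within 0.05 of all 3 folds. This named 30 probes, 21 of the 23 that the list marks for CS17 among them. Of the rest, 3 probes (Kctd1, Mex3b and 1 of the 2 probes for Hist1h2ao) matched several features and 2 (Cdk3-ps and M400018137) matched none. The mean limb differences of the named features at both stages therefore went into their naming, and the study chose the list on these same samples. The single embryo values and their spread are the values behind those means. All values of the named features therefore describe the list and are not independent evidence of its direction. The fit and its adjustment ran over all 12656 features without regard to names. For some named probes, those for Hrk, Dab2, Syt13, Tmc1 and Rbm10 among them, the list gives no similarity to bat sequence (Myotis lucifugus). Some gene names, such as Rbm10, Prkcd and Gm10059, come from the study's own alignment of the probe. Whether such probes read the bat gene of that name was not tested. Signature genes of limb identity or of other tissues, such as Tbx5, Tbx4, Krt14 or Myog, were not analysed here because they are not on that list, so the tissue labels could not be set against markers.

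Values are given as the log2 ratio of bat to mouse pool, that is with the sign of the deposited values turned. With the sign turned, 33 of the 35 listed probes had a feature within 0.05 on all 3 folds, against 4 as deposited. This direction is likely but is not stated with the values, and the sample labels word the ratio the other way. Under that wording, higher and lower would change places throughout. Because mouse probes read the bat RNA and the centring of the values is unknown, a value level with the mouse pool need not mean equal expression. Values above or below the pool are therefore not read as differences in expression between the species. Differences are FL minus HL on the log2 scale, tested with limma within embryos over all 16 arrays, and adjusted p-values are Benjamini-Hochberg values over all 12656 features.

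A single feature separated the limbs beyond the test's threshold at CS17, and it was the feature matched to the 5′-Meis2 probe. It was 4.53-fold higher in the FL. No other feature had an adjusted p under 0.05, which makes 1 of 12656 features called (0.0079%). Below that threshold, 1159 features (9.16%) had an unadjusted p under 0.05, of which 905 (7.15%) were higher and 254 (2.01%) lower in the FL. This split depended on scaling, and was 677 higher and 424 lower with each array centred on its median and 682 and 659 after quantile normalization. The next smallest adjusted p from limma was 0.17, for Hapln1, and 3 features had one under 0.2. By size alone, 72 features (0.569%) averaged more than 1.5-fold higher in the FL and 6 (0.0474%) more than 1.5-fold lower, together 0.616%. These counts were 47 and 9 with each array centred on its median, 39 and 28 after quantile normalization, and 204 and 36 without embryo 2. The median size of the limb difference over all features was 0.11, with a median standard error of 0.12, and the 95th percentile of the size was 0.37.

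**Figure D1:**
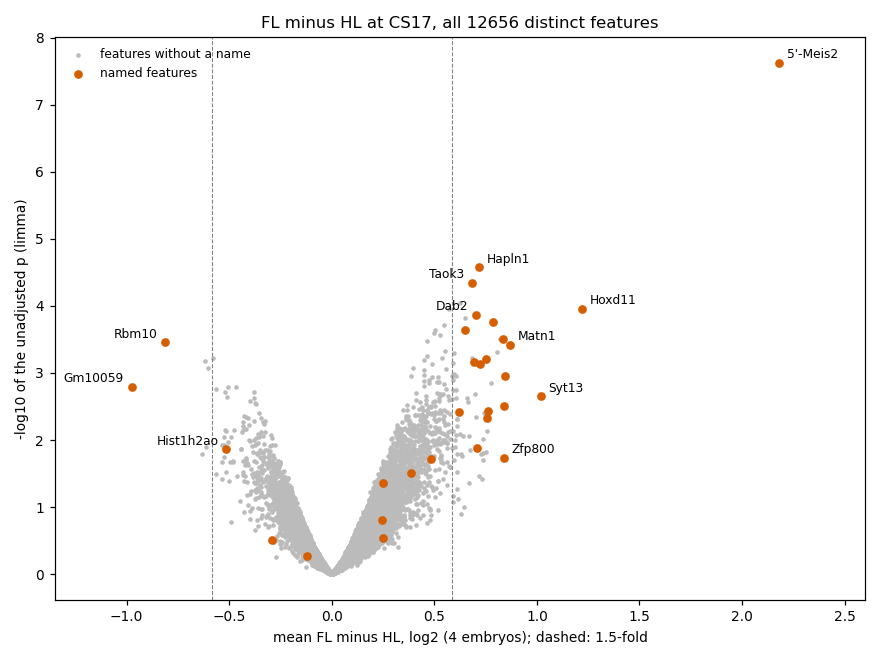
Mean FL minus HL at CS17 (log2, x axis) against the −log10 of the unadjusted p from limma (y axis) for all 12656 features, with the 30 named features as large orange points and dashed lines at 1.5-fold. The 5′-Meis2 feature stands alone at 2.18, and 72 features lie beyond the right line against 6 beyond the left, counts that were 39 and 28 after quantile normalization.

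The 5′-Meis2 probe, M400017713, lies 5′ of the Meis2 coding region, in the 5′ UTR of the transcript as the study mapped it. Genome coordinates of the probe were not used here. The study's quantitative PCR primers for the stretch that this probe reads are shown because they delimit the sequence on which the 1 called feature rests. They are given 5′ to 3′ in lower case, with no base singled out, and the PCR values themselves were not analysed here.
forward primer: ctatggccaccacgacttc
reverse primer: tgtcagtaggtgttggcagg

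Meis2 encodes a TALE homeodomain protein. Another Meis2 probe of the array, 3′-Meis2, is not on the list of top probes and was not analysed here. For it the study reports a lower signal and a modest limb difference at CS17, while its PCR found both regions higher in the FL. The 5′-Meis2 feature had log2 ratios of 3.28, 3.07, 3.55 and 3.34 in the FL of embryos 1 to 4, against 1.07, 1.29, 1.48 and 0.68 in the HL of the same embryos. The 4 FL values lay close together and all above the highest HL value, so the limbs did not overlap. Both limbs were above the mouse FL pool in every embryo. Within embryos the FL exceeded the HL by 2.21, 1.78, 2.07 and 2.66. The mean difference was 2.18 (standard error 0.18, 95% confidence interval 1.80 to 2.56, adjusted p = 3.02e-04 from limma), the largest of all 12656 features and positive in 4 of 4 embryos. Without embryo 4, whose HL was the lowest, it was 2.02. At CS16 the FL exceeded the HL by 0.54, 0.52, 1.22 and 1.5 in the 4 younger embryos, on average by 0.95 (limma adjusted p = 0.621, standard error 0.18). The mean HL ratio was 1.13 ± 0.34 at CS17 and 1.16 ± 0.23 at CS16, and the mean FL ratio was 3.31 ± 0.20 at CS17 and 2.10 ± 0.42 at CS16 (SD, n = 4 each). The limb difference was 1.24 larger at CS17 than at CS16 (standard error 0.25), which missed the threshold (adjusted p = 0.242 from limma). In pieces of tissue, more cells that carry a transcript and more transcript per cell cannot be told apart, and this holds for every gene below.

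Hoxd11, a 5′ HoxD gene, had the second largest difference but did not pass the test. The study, with its own tests on a smaller, filtered set of probes, marked it as significant at both stages. At CS17 this holds for every probe that its list marks. Among the 5200 most variable features, where every feature had the same standard error, Hoxd11 had an adjusted p of 7.28e-07 from limma. The name Hoxd11 comes from the list of top probes, which gives M200002041 as Hoxd11, while the study's primer table sets the same probe number beside a Meis2 target. The FL log2 ratios were 0.37, 1.02, 0.78 and 1.02, against −0.07, −0.44, −0.34 and −0.85 in the HL. Every FL was above the mouse pool and every HL below it. The difference averaged 1.22 (standard error 0.22, 95% confidence interval 0.74 to 1.70, adjusted p = 0.239 from limma), and ranged between 0.43 in embryo 1 and 1.88 in embryo 4. At CS16 it averaged 0.84, with a positive difference in 4 of 4 embryos there too. Lnp, the neighbour of the HoxD cluster, had log2 ratios of 1.76, 1.83, 1.73 and 1.63 in the FL and 1.07, 1.37, 2.04 and 1.47 in the HL. These groups overlapped, and the difference of 0.25 had an interval of −0.11 to 0.60 that held 0.

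Cartilage matrix was represented by a pair of genes. Hapln1 encodes the link protein that fixes aggrecan to hyaluronan. Its FL ratios were 1.5, 1.77, 1.62 and 1.71, against 1.02, 1.10, 0.93 and 0.68 in the HL, and the groups did not overlap. The FL exceeded the HL by 0.48 to 1.03 within embryos, on average by 0.72 (limma adjusted p = 0.17, standard error 0.11). Matn1 encodes matrilin-1, a protein of the cartilage matrix. Its FL ratios were 0.20, 0.99, 0.59 and 0.68, against −0.01, −0.14, −0.43 and −0.46 in the HL. Embryo 1 differed by 0.20 and the other three by 1.02 to 1.14, with a mean of 0.87 (limma adjusted p = 0.252, standard error 0.18). At CS16 the limb difference averaged 0.28 for Hapln1, higher in the FL in 4 of 4 embryos, and −0.33 for Matn1, higher in the FL in 1 of 4.

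Of 4 named genes of signalling and cell death, Hrk, Taok3 and Dab2 are on the list for their fold at CS17, so that they averaged more than 1.5-fold higher in the FL (0.569% of all features did) restates that choice. None of the 4 passed the test. Hrk encodes harakiri, a BH3-only protein that promotes apoptosis. Its FL ratios were 0.66, 0.34, 0.91 and 0.63, against 0.13, −0.08, −0.03 and −0.07 in the HL. The lowest FL value was above the highest HL value, and the mean difference was 0.65 (limma adjusted p = 0.242, standard error 0.13). Taok3, a kinase of the TAO family, had FL ratios of 1.45, 1.07, 1.38 and 1.00, against 0.75, 0.59, 0.61 and 0.21 in the HL. Its within-embryo differences spanned the narrowest range of the 30 named features, 0.48 to 0.79, with a mean of 0.68 (limma adjusted p = 0.192, standard error 0.11). Dab2, an endocytic adaptor, had FL ratios of 0.42, 0.12, 0.69 and 0.26, against −0.36, −0.17, −0.30 and −0.50 in the HL, and a mean difference of 0.70 (limma adjusted p = 0.241, standard error 0.13). Prkcd, which encodes protein kinase C delta, had FL ratios of 1.24, 1.33, 1.88 and 1.90, against 1.17, 0.85, 1.04 and 1.34 in the HL. Its groups overlapped and the difference of 0.49 had an adjusted p of 0.457 from limma.

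Of genes for transcription and RNA handling, 2 averaged higher and 1 lower in the FL. Secisbp2l, a relative of the protein that binds selenocysteine insertion elements, had FL ratios of 1.39, 1.21, 1.16 and 0.89, against 0.66, 0.72, 0.09 and 0.15 in the HL, and differed by 0.76 on average. Zfp800, a zinc finger gene, had FL ratios of 0.63, 0.30, 0.97 and 0.85, against 0.58, 0.05, −0.28 and −0.96 in the HL. Its difference rested on embryos 3 and 4 (1.24 and 1.81), while embryos 1 and 2 gave 0.05 and 0.25. The mean of 0.84 for Zfp800 became 0.51 without embryo 4. Rbm10, which encodes a splicing regulator, was lower in the FL of every embryo, with FL ratios of −0.18, −0.47, 0.41 and 0.04 against HL ratios of 1.09, 0.73, 1.00 and 0.23. The Rbm10 difference ranged from −1.27 in embryo 1 to −0.19 in embryo 4 and averaged −0.81 (limma adjusted p = 0.244, standard error 0.17).

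None of the 4 named genes of transport and protein turnover passed the test, with adjusted p-values of 0.242 to 0.773 from limma. Syt13, a synaptotagmin, had FL ratios of 1.93, 1.74, 2.18 and 2.07, against 1.32, 1.32, 0.88 and 0.32 in the HL. The FL values of Syt13 spanned a narrow range and the HL values a wide one, and the difference was 1.30 and 1.75 in embryos 3 and 4, against 0.61 and 0.41 in embryos 1 and 2. Its mean was 1.02 (limma adjusted p = 0.381, standard error 0.27). Kpna3, an importin alpha gene, showed the same shape, with FL ratios of 2.09, 1.88, 2.23 and 2.21 against HL ratios of 1.92, 1.78, 1.12 and 0.74. Embryos 1 and 2 differed by 0.17 and 0.09 for Kpna3, and its mean of 0.71 became 0.46 without embryo 4. Pgcp, a carboxypeptidase gene, had FL ratios of 0.64, 0.95, 0.37 and 0.75, against 0.19, 0.05, −0.32 and −0.35 in the HL, without overlap and with a mean difference of 0.79. Ubr2, a ubiquitin ligase gene, had FL ratios between −1.65 and −1.55 and HL ratios between −2.48 and −1.10. Its difference was −0.47, 0.82, 0.93 and −0.28 in embryos 1 to 4, and the mean of 0.25 had an interval of −0.24 to 0.74.

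**Figure D2:**
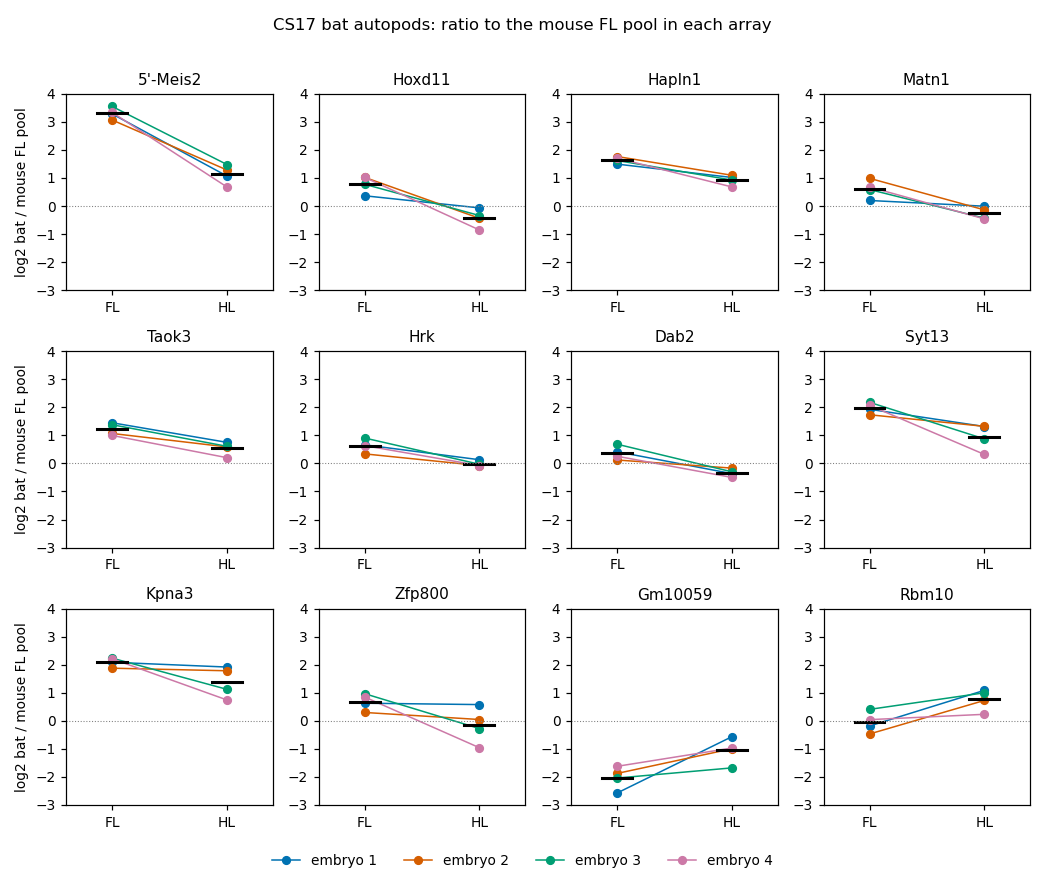
Log2 ratio of bat to mouse FL pool (y axis) for 12 named features in the FL and HL of each CS17 embryo, with 1 coloured line per embryo, black bars at the mean of 4 arrays and a dotted line at the level of the mouse pool. The limbs are apart in every embryo for 5′-Meis2, embryo 4 has the lowest HL value for 9 of the 10 features that averaged higher in the FL, and Gm10059 and Rbm10 slope upward.

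Membrane and junction genes were mixed. Olfr1303, an olfactory receptor gene, had FL ratios of 0.55, 0.52, 0.44 and 0.27, against −0.08, −0.18, −0.33 and −0.10 in the HL, with no overlap. Its mean difference of 0.62 was just past 1.5-fold. Tmc1, known for the mechanotransduction channel of hair cells, had FL ratios of 0.18, 0.37, 0.99 and 0.44, against 0.21, −0.80, −0.17 and −0.28 in the HL. The Tmc1 difference was −0.03 in embryo 1 and 0.72 to 1.17 in the others, with a mean of 0.75. Ajap1, an adherens junction protein gene, differed by 0.10 to 0.49 within embryos, with a mean of 0.25 and overlapping limbs. Sbsn, an epidermal gene, averaged −0.29 with an interval of −0.89 to 0.31.

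The lower side held few named features. Gm10059 had the lowest mean difference of all 12656 features, with FL ratios of −2.57, −1.88, −2.04 and −1.62 against HL ratios of −0.57, −1.0, −1.68 and −0.97. It was lower in the FL in 4 of 4 embryos, with differences of −2.01 to −0.36, although the FL of embryo 4 lay above the HL of embryo 3, so the groups overlapped. The Gm10059 mean was −0.98 (limma adjusted p = 0.356, standard error 0.24), and in both limbs every value was below the mouse pool. Hist1h2ao, a replication-dependent histone H2A gene, had FL ratios of −1.56, −1.40, −1.51 and −1.64, against −0.57, −1.31, −1.28 and −0.88 in the HL. Its limbs did not overlap, and its mean difference of −0.52 was just short of 1.5-fold. The study's list gives the other Hist1h2ao probe, which matched several features, no limb difference at CS17. Npm1, which encodes the nucleolar protein nucleophosmin, differed by 0.67, −0.06, −0.86 and −0.22 in embryos 1 to 4, so its direction varied between embryos.

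The remaining named features are little studied genes or carry no gene. They are 4930428O21Rik, 1700125D06Rik, Casc1, 1700047M11Rik, 4930473A06Rik and the probe M400008298, all more than 1.5-fold higher in the FL, and BC049702. The FL ratios of 4930428O21Rik were −0.82, −1.17, −0.66 and −1.11, against −1.24, −1.64, −2.34 and −1.92 in the HL, a mean difference of 0.85. Embryo 3 gave the widest gap, 1.68, and both limbs were below the mouse pool. For 1700125D06Rik the FL ratios were 1.75, 1.67, 2.24 and 2.57, against 1.01, 1.41, 1.46 and 1.01 in the HL. Its limbs did not overlap, and its mean difference was 0.83 at CS17 and −0.43 at CS16. Casc1 had FL ratios of 2.34, 2.04, 2.99 and 2.61, against 1.78, 2.14, 1.39 and 1.31 in the HL, which overlapped. Its difference averaged 0.84 and was −0.10 in embryo 2. For 1700047M11Rik the FL ratios were 0.97, 0.93, 1.4 and 1.21, against 0.44, 0.79, 0.16 and 0.12 in the HL, and for 4930473A06Rik they were 1.30, 1.06, 1.72 and 1.62, against 0.58, 1.03, 0.79 and 0.40. The FL ratios of M400008298 were 1.52, 1.35, 1.57 and 1.79, against 0.82, 1.31, 0.64 and 0.68 in the HL. These last 3 features had no overlap, mean differences of 0.75, 0.72 and 0.69, and their smallest difference in embryo 2 (0.14, 0.04 and 0.05). BC049702, with limb differences of 0.62, 0.09, −0.16 and 0.99, averaged 0.39, and 0.18 without embryo 4.

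Over the list, 20 of the 30 named features averaged more than 1.5-fold higher in the FL and 2 (Gm10059 and Rbm10) more than 1.5-fold lower, as the study's choice of probes fixed. Apart from 5′-Meis2, the other 21 of these had adjusted p-values of 0.17 to 0.453 from limma, so none of them passed the test. Just inside that fold lay Olfr1303 at 1.54 and just outside it Hist1h2ao at 1.43. The median limb difference was 0.71 over the named features, against 0.05 over all features. The limbs did not overlap for 16 named features with a higher FL and for 1, Hist1h2ao, with a lower FL, against 4.35% and 1.66% of all features. In 4 of 4 embryos, 20 named features were higher and 4 lower in the FL, against 9.51% and 4.22% of all features. The mean FL lay above the mouse pool and the mean HL below it for 8 named features (Hoxd11, Matn1, Zfp800, Pgcp, Tmc1, Hrk, Dab2 and Olfr1303), against 5.72% of all features. The study picked the list by folds on these same samples, so nothing is read from these counts beside the shares.

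Of all 72 features above 1.5-fold in the FL, 34 had limbs that did not overlap, 43 were higher in 4 of 4 embryos, and 66 had an unadjusted p under 0.05. The shares over all features were 4.35%, 9.51% and 7.15%, but the 72 were picked by the size of this same difference, so nothing is read from these counts. The 2 without a name that differed most were features 35270 and 3519. Feature 35270 had FL ratios of 1.96, 1.56, 1.48 and 1.82, against 0.51, 1.06, 1.20 and 0.76 in the HL, with a mean difference of 0.82. Feature 3519 had FL ratios of 1.62, 0.81, 1.55 and 1.56, against 0.82, 0.74, 0.68 and 0.06 in the HL, with a mean difference of 0.81. The 2 lowest without a name were features 34837 and 25654, at −0.63 and −0.62. Feature 25654 was lower in the FL of every embryo, while the difference of feature 34837 was −1.54 in embryo 1 and 0.18 in embryo 2.

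The 4 embryos did not contribute evenly. The median limb difference over all features was −0.02, 0.02, 0.00 and 0.19 in embryos 1 to 4, so embryo 4 stood apart from the other three. The HL of embryo 4 had the lowest array median, −0.17, against −0.10 to −0.05 in the other CS17 HL arrays and −0.10 to −0.04 in the FL arrays. Averaged over embryos, the array medians differed between FL and HL by 0.04 (SD 0.07, n = 4, higher in the FL in 3 of 4 pairs, exact sign-flip p = 0.375, two-sided), where the smallest p that 4 pairs allow is 0.125. More than 1.5-fold differences toward the FL numbered 322, 296, 505 and 1655 in embryos 1 to 4, and those toward the HL 395, 146, 153 and 271. Of the 72 features above 1.5-fold, 33 had their largest difference in embryo 4, 26 in embryo 3, 7 in embryo 2 and 6 in embryo 1. Of all 12656 features, 5556 had their largest difference, by size, in embryo 4, 2317 in embryo 3, 2145 in embryo 2 and 2638 in embryo 1. The HL of embryo 4 was the lowest of the 8 arrays for 15 of the 30 named features, against 38.6% of all features. Without embryo 4, 388 features had an unadjusted p under 0.05 and were higher in the FL, against 905 with it. Of the 22 named features beyond 1.5-fold, 4 (4930473A06Rik, Kpna3, M400008298 and Zfp800) averaged less than that without embryo 4. Leaving out embryo 3 instead brought 5 of the 22 (4930428O21Rik, Casc1, Hrk, Kpna3 and Olfr1303) under 1.5-fold. Without embryo 1 or without embryo 2, 0 fell under it. The part of the embryo 4 HL array in the counts was not tested.

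Replicates also varied more in the HL than in the FL. The median SD over 4 arrays was 0.18 in the HL, against 0.13 in the FL, and the SD was larger in the HL for 69.3% of features. Among named features the medians were 0.24 in the FL and 0.33 in the HL, with the HL larger for 20 of 30. At CS16 the median SD was 0.14 in both limbs. Across features, which are not independent replicates, CS17 FL arrays correlated with each other at 0.935 to 0.963 and HL arrays at 0.902 to 0.952. The limb differences of any pair of embryos correlated at −0.228 to 0.232, so the profile of FL minus HL over all features was shared little between embryos.

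The differences were also uneven along the table. Cut into 20 equal blocks of consecutive feature numbers, a division chosen after the data were seen, blocks 1 to 4 and 15 to 20 held 57 features beyond 1.5-fold among 6105 (0.934%) and blocks 5 to 14 held 21 among 6551 (0.321%). An unadjusted p under 0.05 was found for 11.9% of features in the outer blocks and 6.61% in the inner ones. In embryo 4 the median limb difference was 0.23 to 0.36 in the outer blocks and 0.08 to 0.19 in the inner ones. In embryos 1 to 3 every block median lay between −0.05 and 0.07. The median of the outer blocks minus that of the inner blocks was −0.12 on the array of the embryo 4 HL, and −0.04 to 0.02 on the rest of the 16 arrays. By the range of block medians, the embryo 4 HL (0.22) was not alone. That range was 0.23 for the CS16 HL of repeat 1 and 0.08 to 0.15 on the other arrays. How feature numbers relate to places on the slide is not given in the sources used here, and the part of this pattern in the limb differences was not tested. Of the named features, 24 of 30 lay in the outer blocks, and 5′-Meis2 lay in block 13. With every array centred within each block, the 5′-Meis2 difference was 2.15, and 20 of the 22 named features stayed beyond 1.5-fold, Hrk and Olfr1303 falling short.

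**Figure D3:**
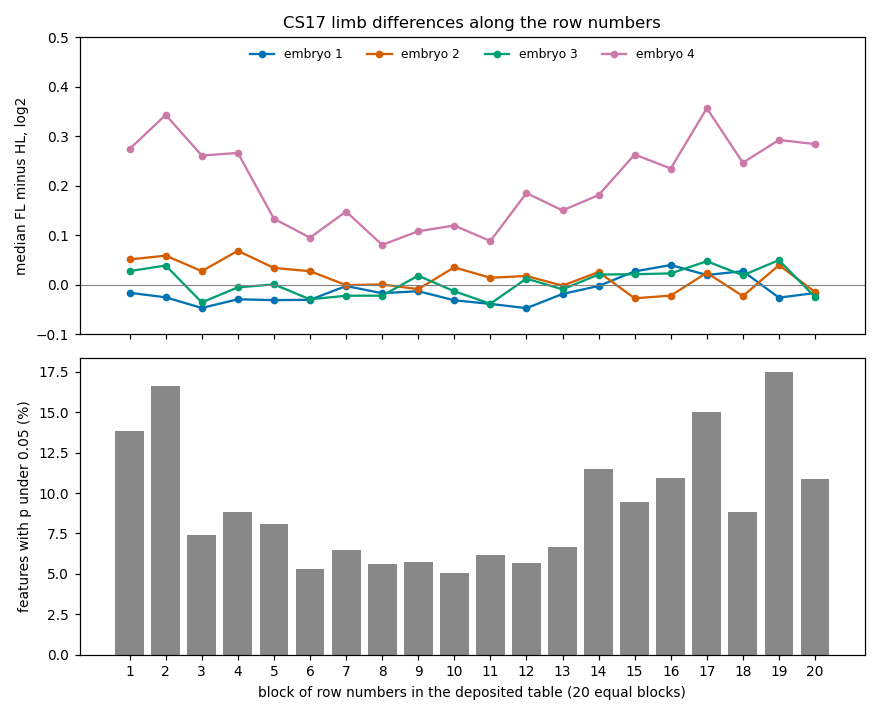
Median FL minus HL over features (log2, upper panel, 1 line per CS17 embryo) and the percentage of features with an unadjusted p under 0.05 (lower panel) in 20 equal blocks of feature numbers (x axis). Embryo 4 lies above the other embryos in every block and is highest at the ends of the table, where the bars are also mostly taller.

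The same features were set beside the limb difference in the 4 CS16 embryos, which share no bat sample with CS17. At CS16, limma gave 0 features an adjusted p under 0.05, and 634 (5.01%) had an unadjusted p under 0.05. Of the 72 features above 1.5-fold in the FL at CS17, the CS16 average was positive for 21 and negative for 51, against 7222 and 5434 of all features. The 20 named ones among them included 3 that were higher in 4 of 4 embryos at both stages, 5′-Meis2, Hoxd11 and Hapln1. Of all features, 9.78% were higher in 4 of 4 embryos at CS16. The CS16 folds also went into the naming, so nothing is read from this count. Over all 30 named features, 9 were higher and 4 lower in the FL of every CS16 embryo, against 9.78% and 4.82% of all features, and the CS16 limbs did not overlap for 4 with a higher and 4 with a lower FL, against 3.48% and 1.6%. For limb differences at CS17 minus those at CS16, limma gave 0 features an adjusted p under 0.05, with 1014 (8.01%) at an unadjusted p under 0.05. Among the named features, the largest such change toward the FL was 1.51 for Prkcd (limma adjusted p = 0.218, standard error 0.26), which averaged 0.49 at CS17 and −1.02 at CS16. The largest toward the HL was −1.51 for Gm10059 (limma adjusted p = 0.282, standard error 0.34), which averaged −0.98 at CS17 and 0.53 at CS16. Rbm10 had a change of −1.38 (limma adjusted p = 0.218, standard error 0.24), averaging −0.81 at CS17 and 0.57 at CS16. Ajap1 and Npm1 averaged less at CS17 (0.25 and −0.12) than at CS16 (0.65 and 0.67), and Sbsn was −0.29 at CS17 and −1.06 at CS16. Between limbs, the study's list marks Prkcd, Ajap1, Npm1 and Sbsn at CS16 and not at CS17. It marks Gm10059 and Rbm10 at CS17 and not at CS16. Their changes between stages therefore go with that choice, and nothing is read from them.

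**Figure D4:**
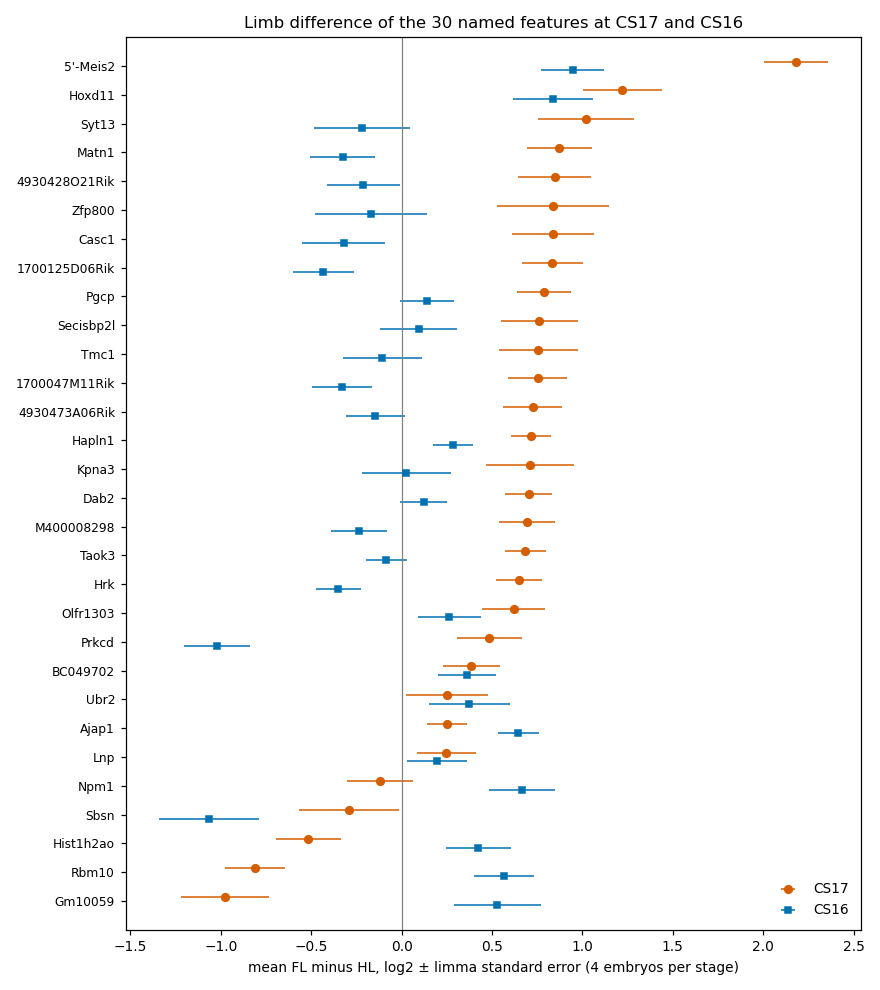
Mean FL minus HL (log2, x axis) with the limma standard error for the 30 named features (y axis), orange circles for CS17 and blue squares for CS16, 4 embryos per stage. 5′-Meis2 and Hoxd11 lie to the right of 0 at both stages. Of the 22 named features beyond 1.5-fold at CS17, 10 have a CS16 mean to the right of 0 and 12 to the left. The study's choice of probes and the naming both drew on these folds, so nothing is read from the contrast of stages.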

How the data were processed

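The authors scanned the 2-colour slides, corrected the background and normalised the signals in R. Filters for variance and spot quality, a batch adjustment and filled-in missing values are also part of their description. What they deposited is 1 log2 ratio per feature and array, and which of these steps lie behind it is not given in the sources used here. Base and likely direction were taken from the match to the listed folds, centring is unknown, and the array medians as deposited lay between 0.04 and 0.17. No scanner files were used, so signal over background is unknown, and precision is limited by how many arrays there were.

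From these values the sign was turned and identical features were counted once. limma 3.58.1 (lmFit and eBayes, R 4.3.3) fitted both limb differences over 16 arrays with the embryo as a block (6 residual and 6.35 prior degrees of freedom) and Benjamini-Hochberg adjustment. The pairing comes from the labels and the study's sample table, which tie a repeat number to an embryo and a labelling batch. The correlation of paired deviations from the group means lay between −0.379 and 0.079 at CS17. Calls used an adjusted p under 0.05, and a stricter rule (adjusted p under 0.01, more than 1.5-fold) gave the same count of 1. Tests were run on simulated data first. Other steps ran in Python 3.11.15 with pandas 2.3.3, numpy 2.4.6 and matplotlib 3.10.9.

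Named features are those that alone had all 3 listed folds within 0.05, with listed folds of 1 and −1 taken as equal. Full values are given for those beyond 1.5-fold at CS17, and for some others chosen after their values were seen. Features without a name are the 2 highest and 2 lowest. The next closest feature lay within 0.1 for 5 of the probes named in the report (4930473A06Rik, Taok3, Lnp, Dab2 and Olfr1303). Members and lists were chosen with earlier results of these data known.

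Alternatives left out the replicate block or set it by labelling batch, used only CS17 arrays, centred arrays on the median or within blocks of features, applied quantile normalization, kept only the 5200 most variable features, moderated variances robustly, counted every row, or left out each embryo.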

Additional observations from a re-analysis of the deposited data

Results flagged for a closer look

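Dixon's test was applied to 109 groups of 4 arrays or embryos, and 6 held a value far from the other three. Chance flags about 1 in 20 such groups. Both facts of whole arrays concerned embryo 4, whose median limb difference of 0.19 stood apart from −0.02, 0.02 and 0.00, and whose HL array mean of −0.10 stood apart from 0.04, 0.02 and 0.03. For single features, Ubr2 was −1.65 in the CS17 FL of embryo 4, against −1.56 to −1.55 in the others. Ajap1 was 0.90 in the CS17 HL of embryo 1, against 1.17 to 1.21. The Matn1 limb difference was 0.20 in embryo 1, against 1.02 to 1.14. Feature 3519 was 0.81 in the CS17 FL of embryo 2, against 1.55 to 1.62.

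5 named features were higher in the FL of every embryo at one stage and lower in every embryo at the other, so their limb differences were opposite at CS17 and CS16. The change, CS17 minus CS16, was 1.51 for Prkcd, 1.27 for 1700125D06Rik and 1.08 for 1700047M11Rik, which were higher in the FL at CS17. It was −1.38 for Rbm10 and −0.94 for Hist1h2ao, which were lower in the FL at CS17. None passed the test of the difference, with adjusted p-values of 0.218 to 0.434 from limma. Between limbs, the study's list marks Prkcd at CS16 and not at CS17. It marks Rbm10, 1700125D06Rik and 1700047M11Rik at CS17 and not at CS16, so nothing is read from the changes of these features. Among all features, 93 (0.735%) were higher at CS17 and lower at CS16 in every embryo, and 58 (0.458%) the reverse.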

How the results depend on the processing

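5′-Meis2 had an adjusted p under 0.05 from limma under every setting for which its own value was tabulated, all but robust moderation, with a difference of 2.02 to 2.31. The count of features called between limbs at CS17 was 1, but 13 without the replicate block and 32 in the set of the 5200 most variable features, where every feature had the same standard error, and it was 1 to 8 with each embryo left out. A block by labelling batch, only the CS17 arrays, robust moderation and every row counted left the calls between limbs at 1. Features higher in the FL at an unadjusted p under 0.05 (905) became 474 among the 5200 most variable and 388 to 1250 with each embryo left out, the lowest without embryo 4. Features lower in the FL (254) became 416 with no replicate block, 78 among the 5200, and 169 to 348 with each embryo left out. The split of 905 higher and 254 lower was 677 and 424 after centring arrays on their median, 682 and 659 after quantile normalization, and 619 and 460 after centring within blocks of features. Beyond 1.5-fold, the 72 higher and 6 lower features became 39 and 28 after quantile normalization and 44 and 16 after centring within blocks, and 47 were higher after centring on the median. With each embryo left out they were 52 to 204 and 8 to 36, the most without embryo 2. Differences between stages called at an adjusted p under 0.05 (0) became 34 among the 5200 and 0 to 2 with each embryo left out. Npm1, at −0.12, ranged from −0.38 to 0.13 with each embryo left out and reversed without embryo 3. A tolerance of 0.1 named 26 probes. Of the 34 named or numbered features, 4 more passed an adjusted p under 0.05 from limma without the replicate block (Hoxd11 and Hapln1 at 0.0147, Dab2 at 0.0414 and 1700047M11Rik at 0.0472), 3 more without embryo 2 (4930473A06Rik and M400008298 at 0.0432 and feature 3519 at 0.0389) and 19 more among the 5200 most variable. The 5200 were picked by a variance that includes the differences between limbs and stages, so nothing is read from the calls among them. The causes of the changes between settings were not tested. Signal over background is unknown here, so differences of dim features could not be weighted by it.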
